A study of Mus musculus with 8 samples.

Results

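Complement is a system of plasma and tissue proteins that tags cells and particles and calls in phagocytes, and 9 of its genes were examined here out of 25006 gene identifiers counted in each library. They were chosen by name as components and receptors of the cascade: the subunits of C1q (C1qa, C1qb and C1qc), the central protein C3, its partner C4b, factor B (Cfb), properdin (Cfp), and the anaphylatoxin receptors C3ar1 and C5ar1. All 9 were found by their Ensembl identifiers, and all 9 passed the filter on low counts. RNA was sequenced from tumors of 4T1, a mammary carcinoma line of Balb/c origin labelled here as triple-negative breast cancer (TNBC). Cells were injected into the fat pad of NSG or Balb/c mice, and tumors grew for at most 20 days. The study asked how gene expression differs between tumors with and without CD95, the death receptor encoded by Fas, in each host.

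The 8 libraries formed 4 groups of 2. Wild-type tumors came from the parental line (replicate 1) and from a line expressing vCas9 (replicate 2), and knockout tumors came from CRISPR/Cas9 clones 54 (replicate 1) and 69 (replicate 2), each line being grown in both hosts. Balb/c hosts were immunocompetent. NSG mice lack mature T, B and NK cells but keep monocytes, macrophages and neutrophils, and they carry a defective Hc gene and so have no functional C5. Each knockout line is 1 clone, which the labels do not say of the parental or vCas9 line, so clonal differences and CD95 status cannot be told apart. The number of tumors behind a library is not given in the sources used here, and the spread within a group contains the difference between its lines.

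The classical, lectin and alternative routes start the cascade and meet at the cleavage of C3. In the classical route C1q binds antibody, pentraxins or dying cells and, through its proteases, cleaves C4 and C2. In the alternative route factor B joins C3b to form a convertase that properdin stabilizes. The small fragments C3a and C5a signal through C3ar1 and C5ar1 on myeloid cells. In tumors C1q and properdin transcripts come mainly from macrophages and other myeloid cells, whereas C3, C4 and factor B are also made by fibroblasts, endothelium and carcinoma cells.

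The genes lie on the minus strand of 5 chromosomes in the GENCODE M21 annotation of GRCm38, the assembly also called mm10, and all are protein-coding. The C1q genes form a cluster on chromosome 4, with C1qb at chr4:136880129-136886187, C1qc at chr4:136889804-136893065 and C1qa at chr4:136895917-136898803. C4b (chr17:34728380-34743882) and Cfb (chr17:34856374-34862518) are neighbours in the major histocompatibility complex, and C3 lies on the same chromosome at chr17:57203970-57228136. Cfp is on the X chromosome (chrX:20925454-20931555), C3ar1 at chr6:122847138-122856161 and C5ar1 at chr7:16246743-16259540. On the same strand C3 overlaps the microRNA gene Mir6978 and Cfb overlaps Mir6972, so reads in those stretches are ambiguous whatever the strand setting. Cfb also overlaps the protein-coding model Gm20547 on that strand. Gm20547 was not among the genes counted, so whether it affected the reads given to Cfb is not known. No annotated gene overlapped any of the 9 on the opposite strand. C4b has a near-identical neighbour, C4a, so its counts and those of C4a are uncertain to the extent that reads were split between the copies.

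Promoter sequence was available for 6 of the 9 genes (C1qb, C1qc, C3, Cfp, C3ar1 and C5ar1) from the RefSeq table for GRCm38.p6, each window holding the 250 bases before the start in that table. RefSeq and GENCODE place the start differently for some of them: 151 bases of the C1qc window and 202 of the C5ar1 window lie inside the gene as GENCODE gives it, 4 of the C3ar1 window do, and 0 of the windows of C1qb, C3 and Cfp. The windows of C1qb (chr4:136886201-136886450) and C3 (chr17:57228137-57228386), both on the minus strand and written 5′ to 3′ along the gene, are shown because the C1q genes moved as a block while C3 did not follow them. Capitals mark a match to GAGGAA, the letters searched for the myeloid factor PU.1, or to TTGCNNAAT, the letters searched for C/EBP.
C1qb: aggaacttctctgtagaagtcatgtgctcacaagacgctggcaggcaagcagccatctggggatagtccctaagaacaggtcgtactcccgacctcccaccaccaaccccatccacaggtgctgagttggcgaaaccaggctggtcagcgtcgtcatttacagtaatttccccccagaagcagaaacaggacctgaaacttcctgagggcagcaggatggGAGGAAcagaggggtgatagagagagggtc
C3: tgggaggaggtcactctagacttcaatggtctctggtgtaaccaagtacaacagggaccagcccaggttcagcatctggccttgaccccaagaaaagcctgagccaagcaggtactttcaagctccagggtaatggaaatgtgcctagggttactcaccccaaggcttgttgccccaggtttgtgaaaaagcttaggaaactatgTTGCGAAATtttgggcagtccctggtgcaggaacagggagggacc
C1qb had GAGGAA beginning 30 bases before its RefSeq start and 43 before its GENCODE start. C1qc had the reverse complement 193 bases before its RefSeq start and 42 before its GENCODE start. These letters matched on either strand in 2 of the 6 windows, beside 23.3% of 32851 promoter windows of this length. Cfp and C3ar1, which rose with the C1q genes between hosts in knockout tumors, did not have them. The Cfp window had 0 matches to any of the letters searched. C3 had TTGCNNAAT 45 bases before its start in both annotations, a motif present in 2.11% of windows. The TATA letters TATAAA, found in 12.4% of windows, occurred in C3ar1 only, at 235 bases before the RefSeq start. The interferon-stimulated response element (ISRE, 2.98% of windows) and the GAS letters TTCNNNGAA (7.02% of windows) matched in 0 of the 6 genes. No pair of matches overlapped, and a match describes the letters and not a bound site.

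Library totals lay between 8680070 and 19655945 counts, and levels are given as CPM, the standard unit of counts scaled to a common library total. The test fitted all 8 libraries together on 15310 genes. Fas had 22.6 to 33.9 CPM in NSG wild-type tumors, 12.9 to 29.5 in NSG knockout tumors, 46.9 to 51.6 in Balb/c wild-type tumors and 27.1 to 33.7 in Balb/c knockout tumors. Gene-level counts do not show a small edit, and host cells in the tumor carry an intact Fas, so the level is a weak check of the labels. The 7 T cell markers measured summed to 3.64 to 9.07 CPM in NSG and 309 to 355 CPM in Balb/c tumors. All 8 epithelial markers were detected in every library, and their sum ran from 743 to 4200 CPM. Both ends of this range were Balb/c knockout tumors, with 743 CPM in the clone 54 tumor and 4200 CPM in the other clone. The part of epithelial content in the complement values of this pair was not tested. The clone 54 tumor from Balb/c stood apart for the complement genes, which summed to 8116 CPM there and to 2965 to 4234 CPM in the other 7 libraries.

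C1q is assembled from 3 kinds of chain, A, B and C, and the genes for all of them shared 1 pattern. C1qa stood at 549 and 600 CPM in the NSG wild-type tumors (parental, then vCas9), at 261 and 358 CPM in the NSG knockout tumors (clone 54, then clone 69), at 217 and 227 CPM in the Balb/c wild-type tumors and at 1567 and 534 CPM in the Balb/c knockout tumors. C1qb was at 383 and 380 CPM, 178 and 222 CPM, 155 and 161 CPM, and 957 and 335 CPM in the same order. C1qc was at 394 and 400 CPM, 165 and 247 CPM, 147 and 152 CPM, and 1059 and 335 CPM. The order of the group means was therefore Balb/c knockout, NSG wild type, NSG knockout and Balb/c wild type for each chain, with the Balb/c knockout pair spread over 2.93-fold (C1qa), 2.86-fold (C1qb) and 3.16-fold (C1qc). For each chain the Balb/c knockout pair enclosed the NSG wild-type pair, so these neighbouring groups in the order did not separate, whereas the other neighbours did not overlap.

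The balance between the chains varied little. Per kilobase of annotated exon, a scale on which genes can be compared, the level of C1qa was 1.46 to 1.71 times that of C1qb over the 8 libraries. After centring each gene on its own mean, C1qa and C1qc differed by a root mean square of 0.06 on the log2 scale over 8 libraries, C1qa and C1qb by 0.09, and C1qb and C1qc by 0.10. On the same scale C1qa averaged 552 ± 34.8 CPM per kb in NSG wild-type tumors (SD, n = 2), C1qb 350 ± 1.57 and C1qc 206 ± 2.23. The 5 other genes most like the C1q mean over the 8 libraries, among 11431 genes averaging at least 5 CPM, were Trem2 (0.15), Ly86 (0.16), Lyz2 (0.24), Pld4 (0.26) and Ccl17 (0.27), with the root mean square difference of centred log2 CPM in brackets. Trem2 and Lyz2 are also on the macrophage marker list used here.

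**Figure D1:**
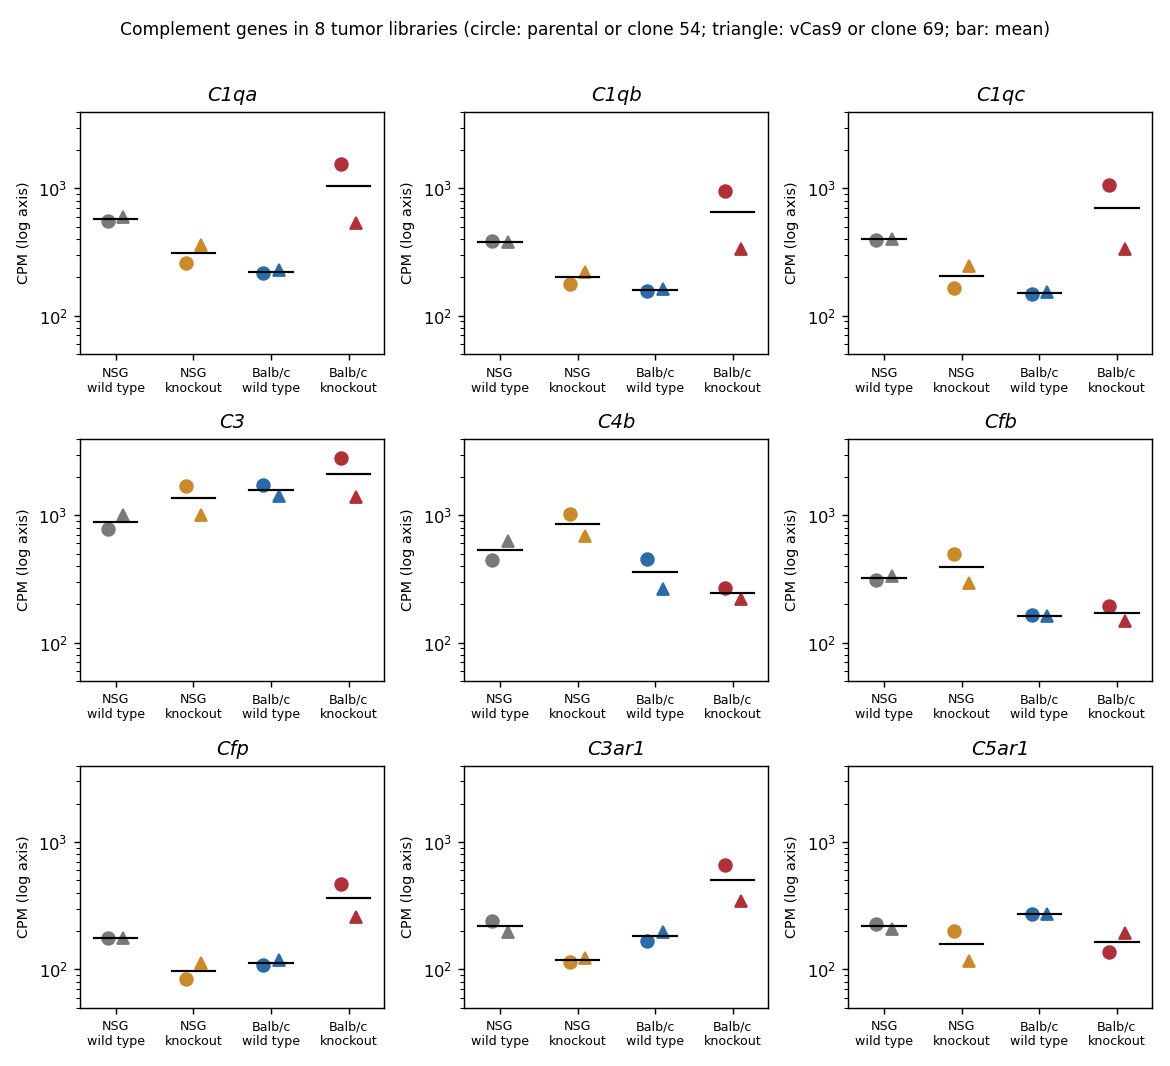
Levels (CPM, log axis) of the 9 complement genes in each tumor library, by host and CD95 status; circles are the parental line or clone 54, triangles the vCas9 line or clone 69, and bars the mean of the pair. The C1q genes, Cfp and C3ar1 are highest in the Balb/c clone 54 tumor, at 1567 CPM for C1qa, whereas C4b and Cfb are lower in both Balb/c groups than in the NSG group of the same CD95 status, except that the parental C4b value in Balb/c (450 CPM) lies between the NSG values of 441 and 623 CPM.

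C3, the protein on which all routes converge, was at 775 and 1005 CPM in NSG wild-type, 1710 and 1008 CPM in NSG knockout, 1729 and 1414 CPM in Balb/c wild-type and 2801 and 1383 CPM in Balb/c knockout tumors. Clone 54 had the higher value of the knockout pair in both hosts, and the clone 69 tumor in Balb/c lay just under both Balb/c wild-type tumors. Per kilobase, C3 averaged 306 ± 43.4 in Balb/c wild-type tumors (SD, n = 2) against 214 ± 7.01 for C1qa, whereas in Balb/c knockout tumors C1qa averaged 1010 ± 702 and C3 407 ± 195. The genes whose centred log2 CPM was most like that of C3 were Apba1 (0.15), Ank2 (0.19), Txndc16 (0.23), Snord15a (0.24) and Gsn (0.24).

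C4b, which supplies the C4 part of the classical convertase, was at 441 and 623 CPM in NSG wild-type, 1025 and 686 CPM in NSG knockout, 450 and 264 CPM in Balb/c wild-type and 269 and 220 CPM in Balb/c knockout tumors. Cfb, the protease precursor of the alternative convertase, was at 311 and 331 CPM, 495 and 292 CPM, 164 and 162 CPM, and 193 and 148 CPM in the same order. Both were lowest in the Balb/c groups and highest in the clone 54 tumor from NSG, and the Balb/c wild-type and knockout values of Cfb overlapped. Between them they differed by 0.34 in centred log2 CPM over the 8 libraries, against 1.33 between C1qa and C4b. The ratio of C3 to C4b in CPM was 1.47 to 1.76 in the 4 NSG libraries and 3.84 to 10.4 in the 4 Balb/c libraries. Glmn (0.13), Cdca7l (0.14), Prnp (0.15), Dusp7 (0.16) and Lrrc45 (0.18) were most like Cfb.

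Cfp encodes properdin, which leukocytes store and release. It was at 175 and 176 CPM in NSG wild-type, 83.4 and 112 CPM in NSG knockout, 108 and 118 CPM in Balb/c wild-type and 467 and 256 CPM in Balb/c knockout tumors. Both Balb/c knockout tumors lay above the other 6 libraries, and the NSG knockout and Balb/c wild-type pairs overlapped. The ratio of Cfp to Cfb in CPM was 0.168 to 0.731 in those 6 libraries and 2.42 (clone 54) and 1.73 (clone 69) in the Balb/c knockout tumors.

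C3ar1, the receptor for C3a, was at 241 and 196 CPM in NSG wild-type, 114 and 122 CPM in NSG knockout, 167 and 197 CPM in Balb/c wild-type and 667 and 347 CPM in Balb/c knockout tumors. C5ar1, the receptor for C5a and a marker of neutrophils and monocytes, was at 229 and 207 CPM, 201 and 116 CPM, 271 and 271 CPM, and 137 and 192 CPM in the same order. The highest C3ar1 values were in the Balb/c knockout tumors and the highest C5ar1 values in the Balb/c wild-type tumors, so the receptors did not share a pattern. Per kilobase, C3ar1 was 0.338 to 0.628 of C5ar1 in the other 6 libraries, and 2.91 times (clone 54) and 1.08 times (clone 69) as high as C5ar1 in the Balb/c knockout tumors. C3ar1 was closer to Cfp, with a centred log2 difference of 0.20, than to C5ar1, at 0.94.

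Between hosts, the comparison of Balb/c with NSG tumors of the same CD95 status asks how the presence of lymphocytes and the host strain go with complement expression. Strain background and immune competence differ together and cannot be told apart. In wild-type tumors, 2 of the 9 genes passed the test, beside 31.5% of all 15310 genes. Both were lower in Balb/c, beside 16.2% of all genes called lower, and 0 were higher, beside 15.3% called higher. At an unadjusted p under 0.05 there were 4 of the 9, beside 45.8% of all genes. C1qa fell by 1.37 on the log2 scale (SE 0.44, adjusted p = 0.0486) and Cfb fell by 0.98 (SE 0.27, adjusted p = 0.0288) in edgeR's quasi-likelihood test with Benjamini-Hochberg adjustment over all genes. C1qb (log2 fold change -1.27, edgeR adjusted p = 0.0521) and C1qc (-1.41, edgeR adjusted p = 0.0534) had estimates of the same size as C1qa just past the threshold. Libraries did not overlap between the hosts for 7 of the 9 genes, beside 76.4% of all genes, and the members' median log2 fold change was -0.64 beside -0.08 for all genes.

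The remaining wild-type estimates lay between the C1q values and a higher C3. The estimate was 0.82 for C3 (SE 0.40, edgeR adjusted p = 0.145), -0.58 for C4b (SE 0.33, edgeR adjusted p = 0.207) and -0.64 for Cfp (SE 0.29, edgeR adjusted p = 0.119). The receptors had the smallest estimates, -0.26 (SE 0.30) for C3ar1 and 0.31 (SE 0.28) for C5ar1, with edgeR adjusted p of 0.520 and 0.405. A fit that blocked on the cell line, pairing each line across hosts, no longer called C1qa (log2 fold change -1.37, edgeR adjusted p = 0.107) and still called Cfb (-0.98, edgeR adjusted p = 0.0445). Neither gene passed when any 1 of the 4 wild-type libraries was left out, which left 0 of 9 each time. Of all genes, 13.5% passed in either direction with the block and 5.45% to 9.44% without single libraries, against 46.7% when only the 4 wild-type libraries were fitted, a fit that called 7 of the 9.

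In knockout tumors 7 of the 9 genes passed, beside 31.1% of all genes, with 5 higher and 2 lower in Balb/c, beside 15.7% and 15.4% of all genes. The same 7 of 9 had an unadjusted p under 0.05, beside 43.4% of all genes. C3ar1 rose by 2.10 on the log2 scale (SE 0.31, edgeR adjusted p = 0.00253) and Cfp by 1.89 (SE 0.29, edgeR adjusted p = 0.00301). C1qa rose by 1.76 (SE 0.45, edgeR adjusted p = 0.0210), C1qb by 1.69 (SE 0.43, edgeR adjusted p = 0.0202) and C1qc by 1.76 (SE 0.48, edgeR adjusted p = 0.0263). C4b fell by 1.81 (SE 0.34, edgeR adjusted p = 0.00646) and Cfb fell by 1.21 (SE 0.27, edgeR adjusted p = 0.0125). C3 (0.62, SE 0.40, edgeR adjusted p = 0.267) and C5ar1 (0.05, SE 0.28, edgeR adjusted p = 0.909) did not pass. The genes that rose and those that fell thus split between the C1q, properdin and C3a receptor genes on one side and C4b and factor B on the other. Libraries of the hosts did not overlap for the 7 genes that passed, beside 64.2% of all genes, and the median over the members was 1.69 beside 0.02 over all genes.

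The clone 54 tumor from Balb/c carried much of the size of the rises. Without it, C1qa rose by 0.76 (edgeR adjusted p = 0.0408) and C1qb by 0.72 (edgeR adjusted p = 0.0272), and C1qc no longer passed (0.68, edgeR adjusted p = 0.0736). Cfp then rose by 1.37 (edgeR adjusted p = 0.00363) and C3ar1 by 1.53 (edgeR adjusted p = 0.00227), while C4b fell by 1.98 (edgeR adjusted p = 0.0158) and Cfb fell by 1.44 (edgeR adjusted p = 0.0159). The calls for C4b, Cfp and C3ar1 stood in every alternative run for this comparison. With the cell line as a block 4 of the 9 passed, and the C1q genes did not (C1qa 1.58 with edgeR adjusted p = 0.0900, C1qb 1.51 with 0.0799, C1qc 1.56 with 0.112). Left out in turn, the NSG knockout libraries also ended the C1q calls: 3 of the 9 passed without clone 54 from NSG (C1qa 1.56, edgeR adjusted p = 0.105), when Cfb was lost as well (-0.78, edgeR adjusted p = 0.0524), and 4 passed without clone 69 from NSG (C1qa 2.01, edgeR adjusted p = 0.0683). Without clone 69 from Balb/c the C1q rises were larger, at 2.35 for C1qa and 2.37 for C1qc (edgeR adjusted p = 0.000715 and 0.000907). Of all genes, 18.8% passed in either direction with the block, 20.9% without clone 54 and 15.6% without clone 69 from NSG, 29.3% without clone 54 and 29.6% without clone 69 from Balb/c, and 16.8% when only the 4 knockout libraries were fitted.

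**Figure D2:**
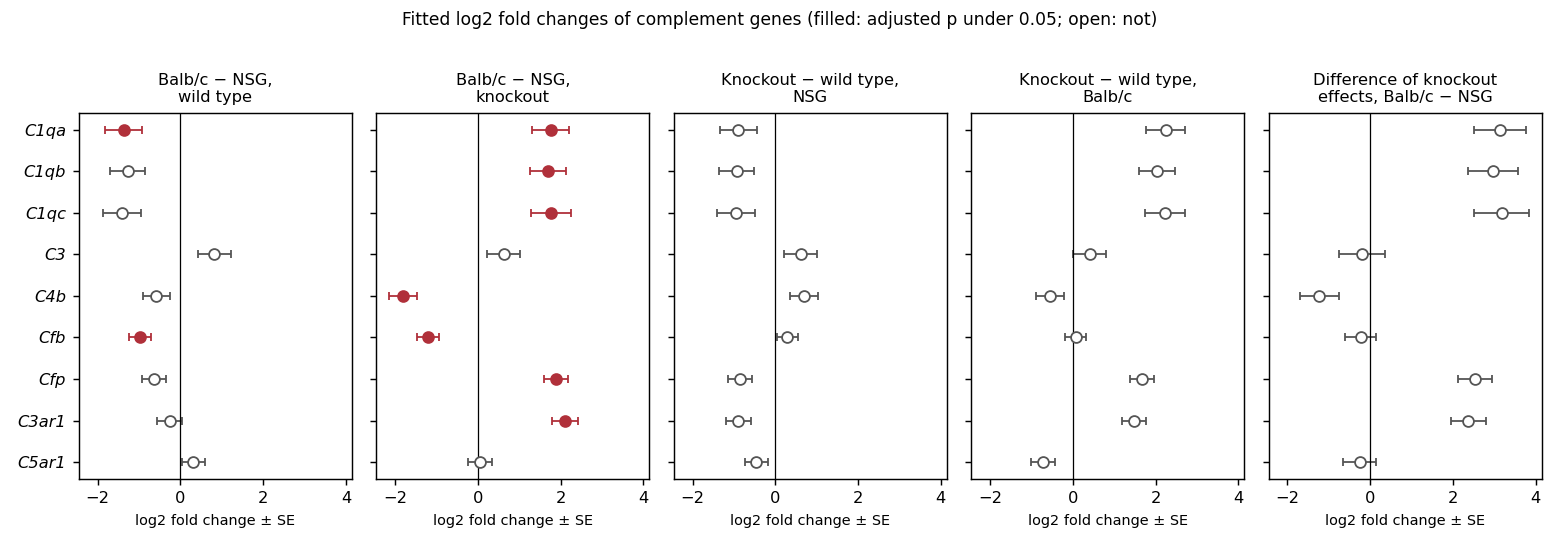
Fitted log2 fold changes with their standard errors for the 9 complement genes in the host comparisons, the knockout comparisons and the difference between the knockout effects; filled points passed an adjusted p of 0.05 in edgeR's quasi-likelihood test and open points did not. In knockout tumors 5 genes rose and 2 fell between hosts, and in the knockout comparisons 0 of the 9 passed in either host.

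The comparison of knockout with wild-type tumors asks how CD95 loss in the tumor cells goes with complement expression within a host. In NSG tumors 0 of the 9 genes passed the edgeR test, beside 0.0131% of all genes, with 2 of 9 at an unadjusted p under 0.05 beside 14.0% of all genes, and DESeq2 also called 0 of 9. Estimates were lower in the knockout tumors for C1qa (-0.89, SE 0.44), C1qb (-0.93, SE 0.42), C1qc (-0.95, SE 0.47), Cfp (-0.85, SE 0.29), C3ar1 (-0.89, SE 0.30) and C5ar1 (-0.46, SE 0.28), with edgeR adjusted p from 0.283 to 0.484. They were higher for C3 (0.61, SE 0.40), C4b (0.69, SE 0.33) and Cfb (0.29, SE 0.26), with edgeR adjusted p from 0.393 to 0.632. All 8 epithelial markers also had estimates above 0, with a median of 1.29. Of them 0 passed in edgeR, and 3 had an unadjusted p under 0.05, beside 0.0131% and 14.0% of all genes. The part of epithelial content in the C3, C4b and Cfb values was not tested. Libraries did not overlap for 8 of the 9 genes, beside 52.6% of all genes. The exception was Cfb, for which the clone 69 tumor lay below both wild-type tumors.

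In Balb/c tumors 0 of the 9 passed the edgeR test, beside 0.176% of all genes (0.0457% called higher and 0.131% called lower), and 6 of 9 had an unadjusted p under 0.05 beside 30.9% of all genes. The estimates were 2.24 for C1qa (SE 0.46, edgeR adjusted p = 0.0564), 2.03 for C1qb (SE 0.43, edgeR adjusted p = 0.0569), 2.22 for C1qc (SE 0.48, edgeR adjusted p = 0.0569), 1.68 for Cfp (SE 0.29, edgeR adjusted p = 0.0564) and 1.48 for C3ar1 (SE 0.30, edgeR adjusted p = 0.0564). Those 5 genes had higher values in both knockout tumors than in either wild-type tumor. C5ar1 had lower values in both, with an estimate of -0.72 (SE 0.28, edgeR adjusted p = 0.131). C3 (0.41, SE 0.40), C4b (-0.55, SE 0.33) and Cfb (0.07, SE 0.26) overlapped between the groups, so libraries were apart for 6 of 9 genes beside 62.2% of all genes. DESeq2 called 5 of 9 beside 15.0% of all genes (2161), and the edgeR fit without a filter on low counts called 5 of 9 beside 8.52% (1774). Without the clone 69 tumor from Balb/c the edgeR fit called 5 of 9 beside 24.8% of all genes (C1qa 2.83, C1qb 2.61, C1qc 2.83 and Cfp 2.05, each with adjusted p = 0.00313, and C3ar1 1.88, adjusted p = 0.00330), and without the clone 54 tumor it called 0 of 9 and 1 gene in all. The estimates without clone 54 were 1.16 for C1qa (edgeR adjusted p = 0.105), 0.98 for C1qb (0.105), 1.07 for C1qc (0.118), 1.08 for Cfp (0.105) and 0.82 for C3ar1 (0.121).

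The difference between the knockout effects, Balb/c minus NSG, tests the host dependence directly. No member passed in edgeR, where 0 of 15310 genes passed. At an unadjusted p under 0.05 there were 6 of the 9 members beside 22.5% of all genes. The estimates were 3.14 for C1qa (SE 0.63, edgeR adjusted p = 0.0854), 2.96 for C1qb (SE 0.60, edgeR adjusted p = 0.0862), 3.17 for C1qc (SE 0.67, edgeR adjusted p = 0.0893), 2.53 for Cfp (SE 0.41, edgeR adjusted p = 0.0778) and 2.37 for C3ar1 (SE 0.43, edgeR adjusted p = 0.0794). The opposite estimate for C4b, -1.23 (SE 0.47), had an edgeR adjusted p of 0.180. C3 (-0.20, SE 0.56), Cfb (-0.23, SE 0.37) and C5ar1 (-0.26, SE 0.39) had estimates smaller than their standard errors. DESeq2 called 5 of 9 beside 6.90% of all genes (968), and the edgeR fit without a filter called 5 of 9 beside 3.24% (674). Without the clone 69 tumor from Balb/c the edgeR fit called 5 of 9 beside 15.1% of all genes (2370), with 3.72 for C1qa and 2.77 for C3ar1 (each adjusted p = 0.00658). Without the clone 54 tumor from Balb/c it called 0 of 9 and 1 gene in all, with 2.04 for C1qa, 1.90 for C1qb, 1.91 for Cfp and 1.70 for C3ar1 (each edgeR adjusted p = 0.0852).

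Macrophage markers moved with the C1q genes. The 14 markers summed to 7035 and 8092 CPM in NSG wild-type, 5551 and 5157 CPM in NSG knockout, 5352 and 5496 CPM in Balb/c wild-type and 19200 and 9161 CPM in Balb/c knockout tumors, with 0 markers undetected in any library. Between hosts in knockout tumors 11 of the 14 rose and 0 fell in edgeR, beside 15.7% and 15.4% of all genes, with a median log2 fold change of 1.57. In wild-type tumors 1 rose and 2 fell, beside 15.3% and 16.2% of all genes, with a median of -0.41. With the line as a block 3 of the 14 rose in knockout tumors and 0 passed in wild-type tumors, beside 18.8% and 13.5% of all genes called in either direction. Without the clone 54 tumor from Balb/c 8 of the 14 rose in knockout tumors (29.3% of all genes called), with a median of 0.93. The count that rose was 3 without clone 54 from NSG (20.9% of all genes called), 6 without clone 69 from NSG, when 1 fell (15.6%), and 2 when only the 4 knockout libraries were fitted (16.8%). In bulk RNA fewer macrophages and less RNA per macrophage cannot be told apart, and the part of macrophage content in the C1q, Cfp and C3ar1 values was not tested.

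The C1q sum was not a fixed share of the macrophage sum. The chains together came to 18.8% and 17.1% of the macrophage marker sum in NSG wild-type, 10.9% and 16.0% in NSG knockout, 9.69% and 9.82% in Balb/c wild-type and 18.7% and 13.2% in Balb/c knockout tumors. The share was thus lowest in both Balb/c wild-type tumors, whose macrophage sums lay between those of the NSG knockout tumors. A few of the 14 markers weighed most in the macrophage sum. Across the 8 libraries Lyz2 ran from 901 to 5122 CPM, Mrc1 from 503 to 4569 CPM and Apoe from 633 to 4293 CPM. Neutrophil markers were highest in the same group as C5ar1: the 12 markers summed to 1611 to 2051 CPM in NSG wild-type, 1803 to 3733 CPM in NSG knockout, 6866 to 8456 CPM in Balb/c wild-type and 651 to 3022 CPM in Balb/c knockout tumors. A single neutrophil marker was at 0 counts in the clone 54 tumor from Balb/c, which also had the lower C5ar1 value of its group, and the part of neutrophil content in C5ar1 was not tested. The sum of the 7 monocyte markers did not follow C5ar1. It was 1609 to 1729 CPM in NSG wild-type and 1258 to 1519 CPM in NSG knockout tumors. In Balb/c it was 1386 to 1462 CPM in wild-type and 2358 to 4974 CPM in knockout tumors. Chil3 alone ran from 43.5 to 3724 CPM across the 8 libraries. For the knockout effect in Balb/c, 4 of the 7 estimates were above 0 and 3 were below, with a median of 0.25. None of the 7 was at 0 counts in any library.

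Fibroblast markers moved with C4b and Cfb. The 10 markers summed to 18303 and 26845 CPM in NSG wild-type, 35045 and 30581 CPM in NSG knockout, 13641 and 9361 CPM in Balb/c wild-type and 12414 and 4409 CPM in Balb/c knockout tumors, and none was at 0 counts in any library. Collagens made up most of this sum. Col3a1 alone ran from 2293 to 20924 CPM across the 8 libraries, whereas Pdgfra ran from 34.6 to 282 CPM. Between hosts 8 of the 10 fell in edgeR in knockout tumors, beside 15.4% of all genes, with a median of -1.57. In wild-type tumors 1 of the 10 fell, beside 16.2% of all genes, with a median of -0.63. With the line as a block 0 fell, beside 13.5% of all genes called in either direction. Without any 1 of the 4 libraries that call was also lost, and the median ran from -0.95 to -0.35. In knockout tumors 6 fell with the line as a block, 4 without clone 54 and 4 without clone 69 from NSG, and 3 when only the 4 knockout libraries were fitted, beside 18.8%, 20.9%, 15.6% and 16.8% of all genes called in either direction. The median in knockout tumors was -1.01 without clone 69 from Balb/c and -2.42 without clone 54 from Balb/c. The part of fibroblast content in the C4b and Cfb values was not tested. The 8 endothelial markers summed to 238 to 416 CPM in NSG wild-type, 297 to 490 CPM in NSG knockout, 186 to 271 CPM in Balb/c wild-type and 485 to 539 CPM in Balb/c knockout tumors, and none was at 0 counts. Between hosts 0 rose and 2 fell in wild-type tumors (median -0.91) and 1 rose and 0 fell in knockout tumors (median 0.01), beside 31.5% and 31.1% of all genes called in either direction. Alb, the defining hepatocyte marker, had at most 3 counts in any library, and the 8 hepatocyte markers summed to 1.01 to 82.6 CPM, of which Fgb alone reached 80.4 CPM; the part of liver RNA was not tested. The 16 interferon response genes listed summed to 557 to 959 CPM in NSG and 2308 to 3395 CPM in Balb/c tumors, and 11 of 16 (wild type) and 12 of 16 (knockout) rose in edgeR, beside 15.3% and 15.7% of all genes. In wild-type tumors 5 of the 16 rose without the parental and 6 without the vCas9 tumor from NSG, where 5.45% to 9.44% of all genes passed without single libraries.

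**Figure D3:**
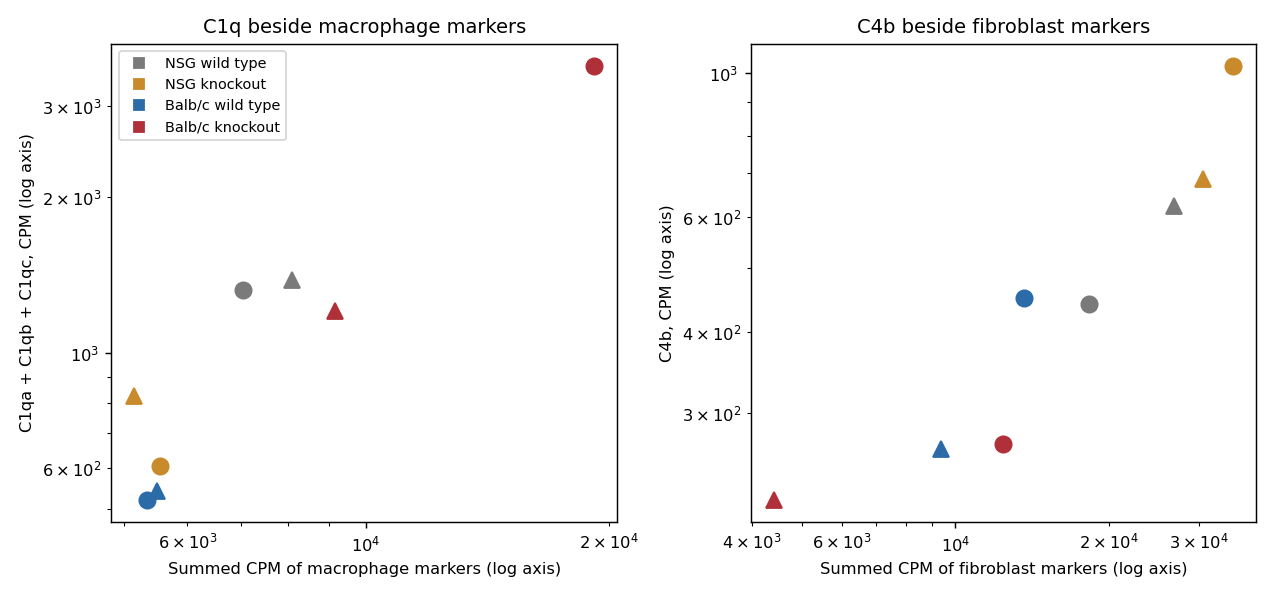
Left, summed CPM of C1qa, C1qb and C1qc against the summed CPM of 14 macrophage markers; right, C4b against the summed CPM of 10 fibroblast markers; both axes are logarithmic, each point is 1 library, colour gives the group, circles are the parental line or clone 54 and triangles the vCas9 line or clone 69. The Balb/c clone 54 tumor has both the highest C1q sum (3583 CPM) and the highest macrophage sum (19200 CPM), and the NSG clone 54 tumor has the highest C4b (1025 CPM) and fibroblast (35045 CPM) values.

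Around these genes, 45 further complement genes were listed by role and 34 of them passed the filter on low counts. Between hosts in wild-type tumors 7 rose and 10 fell in edgeR, beside 15.3% and 16.2% of all genes, with a median of -0.75 beside -0.08 over all genes. In knockout tumors 8 rose and 11 fell, beside 15.7% and 15.4% of all genes, with a median of -0.72 beside 0.02. With the line as a block the counts were 3 rising and 6 falling in wild-type, and 5 rising and 10 falling in knockout tumors, beside 13.5% and 18.8% of all genes called in either direction. In wild-type tumors 5 to 7 of these genes passed when any 1 of the 4 libraries was left out, beside 5.45% to 9.44% of all genes. In the knockout comparisons and in the difference between them 0 of the 34 passed in edgeR. Without the clone 69 tumor from Balb/c 10 of 35 passed in Balb/c and 7 of 35 for the difference, beside 24.8% and 15.1% of all genes. Without a filter on low counts 6 of 41 and 4 of 41 passed, beside 8.52% and 3.24%. DESeq2 called 4 of 41 in NSG, 6 in Balb/c and 4 for the difference, beside 2.41%, 15.0% and 6.90%. The 41 include listed genes with few counts, whereas DESeq2's percentages are over genes given an adjusted p, so their bases differ. At an unadjusted p under 0.05 in edgeR there were 6 of 34 in NSG, 10 of 34 in Balb/c and 11 of 34 for the difference, beside 14.0%, 30.9% and 22.5% of all genes.

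Among initiators of the classical and lectin routes, 1 rose and 2 fell of 11 tested in wild-type tumors, and 2 rose and 5 fell in knockout tumors, beside 31.5% and 31.1% of all genes called in either direction. In knockout tumors 1 rose and 3 fell of 12 tested without clone 54 from NSG, and 0 rose and 5 fell of 12 without clone 69 from NSG, beside 20.9% and 15.6% of all genes called in either direction. C2, the protease partner of C4, fell from 38.6 to 10.9 CPM between NSG and Balb/c wild-type tumors (log2 fold change -1.82, SE 0.28, edgeR adjusted p = 0.00476) and from 51.9 to 20.6 CPM in knockout tumors (-1.33, SE 0.27, edgeR adjusted p = 0.00893). Masp1, a protease of the lectin route, fell from 33.3 to 11.6 CPM (-1.52, SE 0.28, edgeR adjusted p = 0.00790) and from 28.9 to 4.48 CPM (-2.69, SE 0.29, edgeR adjusted p = 0.000843). Masp1 lost its wild-type call without the parental tumor from NSG (-1.18, edgeR adjusted p = 0.0627) or the vCas9 tumor from Balb/c (-1.21, edgeR adjusted p = 0.0658). C4a, the copy next to C4b, went up, rising from 6.87 to 24.3 CPM in wild-type tumors (1.82, SE 0.24, edgeR adjusted p = 0.00267) and from 9.01 to 15.1 CPM in knockout tumors (0.74, SE 0.23, edgeR adjusted p = 0.0432). The knockout call for C4a was lost with the line as a block (0.75, edgeR adjusted p = 0.121) and when any 1 of the knockout libraries was left out. C4a and C4b thus went opposite ways between hosts in knockout tumors, within the limit that reads of such copies can be misassigned. Mbl1 and Mbl2, the mannose-binding lectins, were at 0 counts in all 8 libraries.

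Among alternative pathway enzymes, Cfd, the protease that cleaves factor B and a product of fat cells, fell from 13.1 to 2.45 CPM between hosts in wild-type tumors (log2 fold change -2.43, SE 0.44, edgeR adjusted p = 0.00793). In knockout tumors it fell from 34.7 to 1.53 CPM (-4.53, SE 0.47, edgeR adjusted p = 0.000721), and it fell by 5.17 without clone 69 from Balb/c (edgeR adjusted p = 0.000920). The wild-type call was lost without the vCas9 tumor from NSG (-2.09, edgeR adjusted p = 0.0537) or from Balb/c (-1.94, edgeR adjusted p = 0.0565). Each of the 4 NSG libraries (10.2 to 37.4 CPM) lay above each of the 4 Balb/c libraries (0.952 to 3.23 CPM). Of the 6 adipocyte markers tested, 4 fell and 0 rose in edgeR in knockout tumors, beside 15.4% and 15.7% of all genes, with a median of -2.96. In wild-type tumors 2 fell and 1 rose, beside 16.2% and 15.3%, with a median of -2.05. The wild-type count that fell was 0 without the vCas9 tumor from NSG or the parental tumor from Balb/c, where 5.45% to 9.44% of all genes passed without single libraries. All 7 adipocyte markers listed, with the untested one included, summed to 116 to 167 CPM in NSG, 52.2 to 103 CPM in Balb/c wild-type and 216 to 288 CPM in Balb/c knockout tumors, of which Fabp4 alone was 34.3 to 263 CPM across the 8 libraries. The part of adipocyte content in the Cfd values was not tested. Cfd and Cfb, enzyme and substrate, were thus both lower in Balb/c.

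In the terminal pathway, 4 of the 7 genes listed were tested. In wild-type tumors 1 rose and 1 fell, beside 15.3% and 16.2% of all genes, and in knockout tumors 2 rose and 1 fell, beside 15.7% and 15.4%. With the line as a block these were 0 and 1 in wild-type and 1 and 1 in knockout tumors, and without any 1 of the 4 wild-type libraries 0 passed there; of all genes 13.5%, 18.8% and 5.45% to 9.44% were called in these fits. Hc, which encodes C5, rose from 2.18 to 7.88 CPM in wild-type tumors (log2 fold change 1.85, SE 0.52, edgeR adjusted p = 0.0316) and from 3.14 to 11.2 CPM in knockout tumors (1.84, SE 0.51, edgeR adjusted p = 0.0298). Both calls were lost with the line as a block (edgeR adjusted p = 0.0974 and 0.107), the wild-type call was lost without any 1 of its 4 libraries, and the knockout call was lost without clone 69 from NSG (1.31, edgeR adjusted p = 0.147) or from Balb/c (1.17, edgeR adjusted p = 0.116). Without clone 54 from NSG the knockout estimate was 2.64 (edgeR adjusted p = 0.0244). C6, a later component of the membrane attack complex, rose from 14.5 to 57.8 CPM in knockout tumors (1.99, SE 0.32, edgeR adjusted p = 0.00330) and was at 9.56 to 13.5 CPM in the wild-type tumors. C6 was at 77.4 CPM in the clone 54 tumor from Balb/c and 38.1 CPM in the clone 69 tumor, both above the other libraries, and without the clone 54 tumor its rise was 1.37 (edgeR adjusted p = 0.00372). C7, which joins the complex after C6, lies outside the naming rule and was chosen after its values were seen. It was at 1.94 and 2.73 CPM in NSG wild-type, 5.24 and 2.69 CPM in NSG knockout, 0.170 and 0.485 CPM in Balb/c wild-type and 0.212 and 0.219 CPM in Balb/c knockout tumors. C7 fell by 2.75 on the log2 scale in wild-type (SE 0.62, edgeR adjusted p = 0.0154) and fell by 4.14 in knockout tumors (SE 0.64, edgeR adjusted p = 0.00289), so C6 and C7 went opposite ways in knockout tumors. The wild-type call for C7 was lost without any 1 of its 4 libraries (-2.25 to -3.64, edgeR adjusted p = 0.0502 to 0.0949). C8b was at 0 counts in all 8 libraries.

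Among regulators that restrain the cascade, 1 rose and 2 fell of 8 tested in each CD95 status, beside 31.5% (wild type) and 31.1% (knockout) of all genes called in either direction. With the line as a block 0 of the 8 passed in wild-type and 2 in knockout tumors, and in wild-type tumors at most 1 passed without any 1 of the 4 libraries; of all genes 13.5%, 18.8% and 5.45% to 9.44% were called in these fits. Clu, a fluid-phase inhibitor of the terminal complex, fell from 252 to 54.6 CPM in wild-type tumors (log2 fold change -2.21, SE 0.65, edgeR adjusted p = 0.0362) and from 613 to 42.1 CPM in knockout tumors (-3.87, SE 0.69, edgeR adjusted p = 0.00535). The wild-type call for Clu was lost with the line as a block (edgeR adjusted p = 0.0995) and without any 1 of its 4 libraries. In knockout tumors Clu fell by 3.07 without clone 54 from NSG (edgeR adjusted p = 0.0200), fell by 3.23 without clone 54 from Balb/c (edgeR adjusted p = 0.00945) and fell by 5.12 without clone 69 from Balb/c (edgeR adjusted p = 0.00228). Serping1, the inhibitor of the C1 proteases, fell from 502 to 131 CPM in knockout tumors (-1.93, SE 0.42, edgeR adjusted p = 0.0116) and was at 366 and 160 CPM in wild-type tumors (-1.19, SE 0.41, edgeR adjusted p = 0.0595). Without clone 54 from NSG the Serping1 call in knockout tumors was lost (-1.55, edgeR adjusted p = 0.0546), and without clone 54 from Balb/c it fell by 2.62 (edgeR adjusted p = 0.00516). Cd59a, the membrane inhibitor of the attack complex, fell from 4.36 to 1.30 CPM in wild-type tumors (-1.74, SE 0.40, edgeR adjusted p = 0.0171), a call lost with the line as a block (edgeR adjusted p = 0.0518) and without the vCas9 tumor from NSG (0.0999), the parental tumor from Balb/c (0.0933) or the vCas9 tumor from Balb/c (0.102).

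The integrin chains of complement receptors CR3 and CR4 rose between hosts in both wild-type and knockout tumors. Itgb2, the shared beta chain, rose from 301 to 612 CPM in wild-type tumors (log2 fold change 1.03, SE 0.23, edgeR adjusted p = 0.0144) and from 199 to 789 CPM in knockout tumors (1.98, SE 0.23, edgeR adjusted p = 0.00107). Itgax, the alpha chain of CR4 and a dendritic cell marker, rose from 77.2 to 272 CPM (1.82, SE 0.27, edgeR adjusted p = 0.00450) and from 70.6 to 345 CPM (2.29, SE 0.28, edgeR adjusted p = 0.00123). Itgam, the alpha chain of CR3, rose from 684 to 1154 CPM (0.75, SE 0.24, edgeR adjusted p = 0.0483) and from 383 to 1236 CPM (1.69, SE 0.25, edgeR adjusted p = 0.00251). With the line as a block the wild-type calls for Itgb2 (edgeR adjusted p = 0.0574) and Itgam (edgeR adjusted p = 0.140) were lost, and Itgam also lost its wild-type call without any 1 of its 4 libraries. Without the parental tumor from NSG the wild-type calls for Itgax (1.77, edgeR adjusted p = 0.0519) and Itgb2 (edgeR adjusted p = 0.0993) were lost, and Itgb2 was also lost without the vCas9 tumor from NSG (0.0886) or from Balb/c (0.0871). Several lists of immune cell markers, among them dendritic cell, neutrophil and T cell markers, moved with these chains in wild-type tumors. The 9 dendritic cell markers, which do not include Itgax, summed to 61.8 to 80.3 CPM in NSG wild-type, 31.8 to 38.8 CPM in NSG knockout, 137 to 293 CPM in Balb/c wild-type and 157 to 185 CPM in Balb/c knockout tumors, and 0 of them were at 0 counts in any library. In wild-type tumors 6 of the 9 rose in edgeR (median 1.49) and in knockout tumors 8 of the 9 rose (median 2.60), beside 15.3% and 15.7% of all genes. The wild-type count was 3 with the line as a block, 2 without either NSG tumor and 2 without the parental tumor from Balb/c (median 1.01), beside 13.5% of all genes called with the block and 5.45% to 8.16% without those libraries. Of the 12 neutrophil markers 7 rose and 0 fell in wild-type tumors (median 2.12), and 1 rose and 1 fell in knockout tumors (median -0.73), beside 31.5% and 31.1% of all genes called in either direction. In wild-type tumors 2 of the 12 passed with the line as a block and 0 to 2 without single libraries, and in knockout tumors 8 fell without clone 69 from Balb/c (median -2.26), beside 13.5%, 5.45% to 9.44% and 29.6% of all genes called in either direction. All 7 T cell markers tested rose in wild-type (median 6.18) and in knockout tumors (median 7.20), beside 15.3% and 15.7% of all genes. Of the 7 monocyte markers 4 rose and 1 fell in wild-type tumors (median 1.32), although their sum was lower in Balb/c. In knockout tumors 3 of them rose and 1 fell (median 1.03). Of the 14 macrophage markers 1 rose and 2 fell in wild-type tumors (median -0.41), and 11 rose in knockout tumors (median 1.57). Of all genes 31.5% and 31.1% were called in either direction. The part of any of these cells in the values of the chains was not tested. The chains stood higher in both Balb/c than in both NSG wild-type tumors, where the C3ar1 libraries of the hosts overlapped. The difference between the host effects on C3ar1 and on the integrin chains was not tested.

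**Figure D4:**
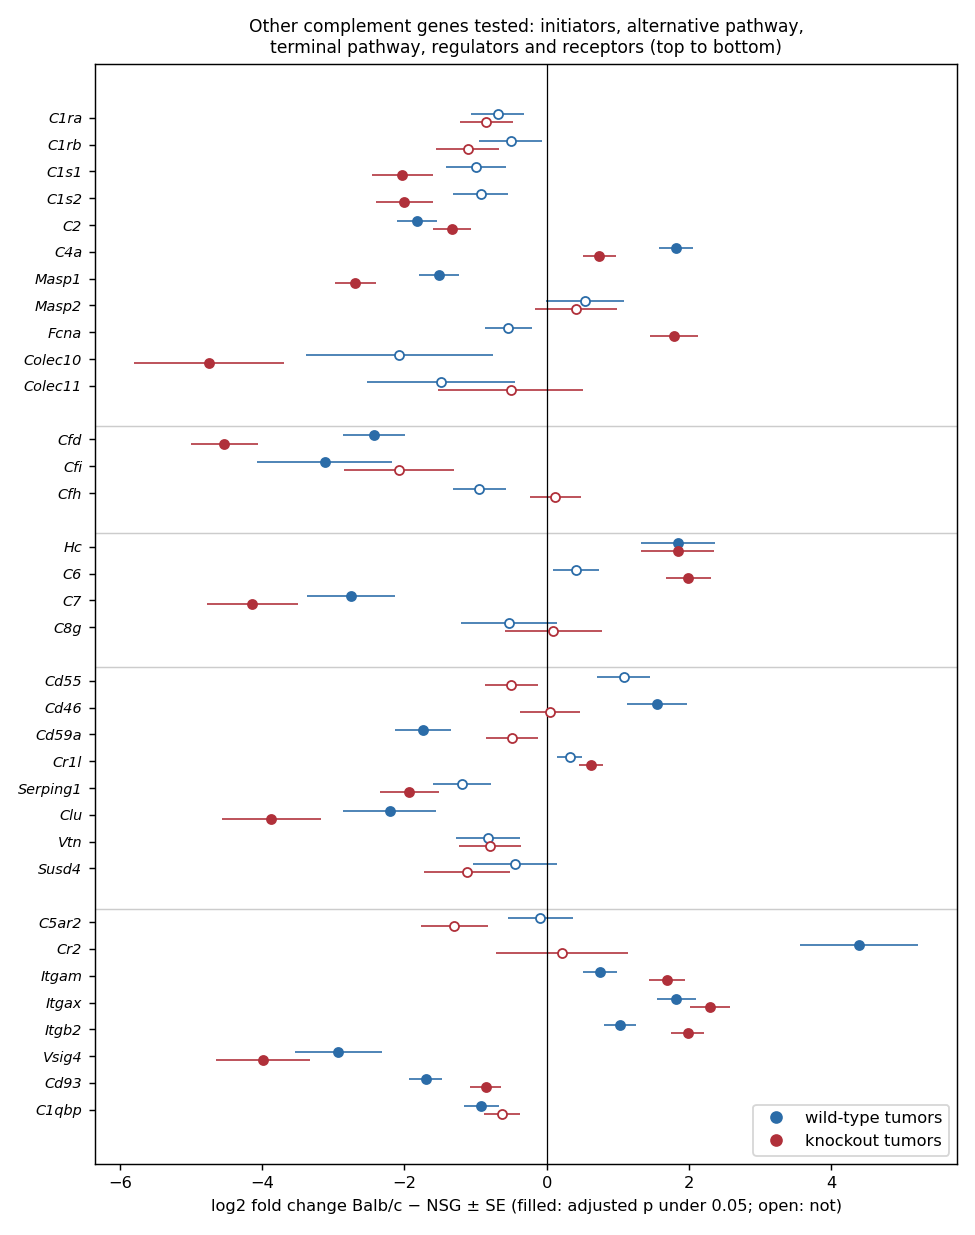
Log2 fold changes between Balb/c and NSG tumors, with standard errors, for the 34 further complement genes that passed the filter, in wild-type (blue) and knockout (red) tumors; filled points passed an adjusted p of 0.05 in edgeR. Colec10 (0 and 1 counts in the Balb/c knockout tumors, so its fold is poorly determined), Cfd (-4.53 in knockout tumors), C7 (-4.14), Vsig4 (-3.99) and Clu (-3.87) lie far to the left, and Cr2 (4.39 in wild-type tumors) and Itgax (2.29 in knockout tumors) to the right.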

How the data were processed

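Total RNA was sequenced from 8 tumor libraries, and the authors deposited raw counts per Ensembl gene for each library. Per the submitters' processing notes, cutadapt 1.13, STAR, HTSeq 0.6.1p1 and DESeq2 were used, with builds mm10 and hg19 named without a role; the annotation, strand setting and filters are not given in the sources used here, so reads of overlapping genes on opposite strands and of near-identical copies are uncertain. The members and gene lists were chosen with earlier results of these data known.

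Symbols were found for 24942 of 25006 identifiers, and 174 of 175 list genes matched (not Trac). Counts were fitted in R 4.3.3 with edgeR 4.0.16 (TMM scaling, filterByExpr, glmQLFit and glmQLFTest) over 4 group means with 4 residual degrees of freedom. Benjamini-Hochberg adjustment ran over 15310 genes with a threshold of 0.05, and the test was tested on simulated data. Library totals ran from 8680070 to 19655945 counts, and edgeR's common coefficient of biological variation was 0.244. CPM were computed on the TMM-scaled totals, and CPM per kb divides by the length of all annotated exons together. P-values measure only the spread between these libraries. Genes of the wider pathway were named if they passed the test in any of the 5 comparisons and averaged at least 5 CPM in their highest group, at most 3 per list by smallest adjusted p. DESeq2 1.42.0, other scalings, no filter, the compared libraries alone, the line as a block and leaving out each library were alternatives. Same-numbered samples are the same line in both hosts, which is where the pairing comes from; deviations of paired libraries from their group means correlated across 15310 genes at 0.0875 for the wild-type lines and -0.353 for the clones. The crossed pairing was added after seeing the data.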

Additional observations from a re-analysis of the deposited data

How the results depend on the processing

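With 2 libraries a group, calls near the threshold depended on single libraries. Of the members' fold changes under all alternatives, 392 kept direction and side of the threshold, 46 became calls, 25 lost the call and 14 changed sign; the cause was not tested except where fewer libraries were fitted. Moving from TMM to library totals shifted the median of all genes from -0.08 to -0.24 (hosts, wild type) and from 0.02 to -0.17 (hosts, knockout). The share of host calls that were higher went from 48.6% to 36.5% and from 50.5% to 37.3%. Member calls became 4 and stayed 7, beside 34.1% and 30.7% of all genes called with library totals. RLE size factors moved the share of higher calls the other way, to 57.9% in wild-type and 51.4% in knockout tumors.

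Between hosts in wild-type tumors the member calls were 2, and were 1 (RLE size factors), 4 (library totals), 4 (no filter), 4 (DESeq2), 7 (only the 4 libraries compared), 1 (replicate block) and 0 to 0 without single libraries; all-gene calls were 4825, with 6838 (46.7%) when only the 4 libraries were compared, 2073 under the replicate block and 858 to 1482 without single libraries. Between hosts in knockout tumors the member calls were 7, and were 3 (only the 4 libraries), 4 (replicate block) and 3 to 7 without single libraries; all-gene calls were 4757, with 2450, 2878 and 2461 to 4640. With the clones crossed in the block, 5436 genes and 7 members passed. For the host comparison in wild-type tumors, all-gene calls were 4621 (30.2%) with RLE size factors and 5220 (34.1%) with library totals. They were 4873 (23.4%) with no filter and 4865 (30.3%) with DESeq2. For the knockout effect in NSG, all-gene calls were 2, and were 133 (no filter), 339 (DESeq2), 1 (only the 4 libraries) and 0 to 0 without single libraries. For the knockout effect in Balb/c, all-gene calls were 27, and were 94 (RLE), 1774 (no filter), 2161 (DESeq2), 0 (only the 4 libraries) and 0 to 3886 without single libraries; member calls were 0, and were 5 (no filter), 5 (DESeq2) and 0 to 5. For the difference of the knockout effects, all-gene calls were 0, and were 674 (no filter), 968 (DESeq2), 0 (replicate block), 307 (crossed block) and 0 to 2370 without single libraries; member calls were 0, and were 5 (no filter), 5 (DESeq2), 0 (replicate block), 5 (crossed block) and 0 to 5.

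Sign changes touched only estimates that had not passed. Without single libraries, the host effect in knockout tumors ran from -0.00 to 1.05 for C3 and from -0.30 to 0.50 for C5ar1, which was -0.12 with library totals. The knockout effect in NSG ran from -0.14 to 0.62 for Cfb. The knockout effect in Balb/c ran from -0.29 to 0.84 for C3 and from -0.24 to 0.25 for Cfb, which was -0.03 with RLE and -0.02 with DESeq2. The difference of the knockout effects ran from -0.91 to 0.24 for C3, from -0.55 to 0.21 for Cfb and from -0.60 to 0.20 for C5ar1. The replicate block changed no other member call than those given beside the host results. A fit that leaves a group with 1 library assumes that it varies like the others. The lowest member count in any library was 779 (Cfp, clone 54 from NSG), so depth did not limit detection.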

Other observations

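Other complement receptors that the naming rule left out, chosen here after their values were seen, differed between hosts in both directions. Cr2, the receptor for C3d on B cells and follicular dendritic cells, was at 0.485 and 1.41 CPM in NSG wild-type, 0.428 and 1.19 CPM in NSG knockout, 31.4 and 7.83 CPM in Balb/c wild-type and 0.688 and 1.24 CPM in Balb/c knockout tumors. Its host effect in wild-type tumors was 4.39 on the log2 scale (edgeR adjusted p = 0.00891; 4.12 and 0.0435 with the line as a block). It was 3.05 (edgeR adjusted p = 0.0536) without the parental tumor from Balb/c and 3.78 (edgeR adjusted p = 0.0765) without the parental tumor from NSG, and 5.30 (edgeR adjusted p = 0.0460) and 5.14 (edgeR adjusted p = 0.00723) without the vCas9 tumors from NSG and Balb/c. The 7 B and plasma cell markers summed to 306 CPM in the parental and 42.3 CPM in the vCas9 tumor from Balb/c, to 11.1 and 21.4 CPM in the knockout tumors from Balb/c and to 1.09 to 1.41 CPM in NSG tumors; their part in the Cr2 values was not tested.

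Vsig4, a macrophage receptor for C3b, was lower in Balb/c although the macrophage marker sum of the Balb/c knockout tumors was higher. It was at 19.6 and 15.0 CPM in NSG wild-type, 19.3 and 11.2 CPM in NSG knockout, 2.89 and 1.66 CPM in Balb/c wild-type and 0.317 and 1.68 CPM in Balb/c knockout tumors. It fell by 2.93 on the log2 scale between hosts in wild-type tumors (edgeR adjusted p = 0.0120; 0.0491 with the line as a block; 0.0516 to 0.0845 without any 1 of the 4 libraries) and fell by 3.99 in knockout tumors (edgeR adjusted p = 0.00383; 0.0240 with the line as a block). In knockout tumors it fell by 3.20 without clone 54 from Balb/c (edgeR adjusted p = 0.00564) and fell by 5.54 without clone 69 from Balb/c (edgeR adjusted p = 0.00135). Vsig4 and C3ar1 therefore went opposite ways between hosts in knockout tumors. Cd93, an endothelial and myeloid protein once described as a C1q receptor, fell by 1.70 in wild-type tumors (edgeR adjusted p = 0.00307) and fell by 0.86 in knockout tumors (edgeR adjusted p = 0.0223; 0.0701 with the line as a block; 0.130 without clone 69 from NSG and 0.0522 without clone 69 from Balb/c). The endothelial markers, of which 7 of 8 had estimates below 0 and 2 fell in wild-type tumors (median -0.91), had a median of 0.01 in knockout tumors, and their part in the Cd93 values was not tested.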
